A study of Mus musculus with 6 samples.

Results

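The 50 genes described here encode the machinery that copies DNA and supplies it with nucleotides. They were chosen by symbol, with earlier results of these data known. They cover the subunits of the origin recognition complex, the licensing factors, and the replicative helicase and its activators. Also included are the replicative polymerases, the sliding clamp and its loader, and the single-strand binding proteins. The rest are the ligase and flap nuclease of the lagging strand, genes tied to new chromatin and histone mRNA, and the enzymes of deoxynucleotide supply. All 50 were found among the 16426 genes of the expression table, and all 50 reached at least 1 FPKM (fragments mapped per kilobase of transcript, scaled to the size of each library) in at least 3 of the 6 libraries, the minimum set for testing. The cells were 4T1-LM3, labelled as a murine mammary carcinoma line. In 3 samples, called Tdo2high MFs CM, they were given conditioned medium of Tdo2high MFs, and in 3 samples, called Control CM, a control conditioned medium. MFs are the matrix fibroblasts of the study's title, and Tdo2 encodes tryptophan 2,3-dioxygenase, the enzyme that starts the breakdown of tryptophan to kynurenine. Each sample was sequenced as polyA RNA. The labels give neither the source of the control medium nor the length of the treatment, and they do not say whether samples of a group were separate cultures. The p-values thus reflect the scatter among these 6 samples and no more, and that scatter may be technical.

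Replication is prepared in G1 phase, when the origin recognition complex, CDC6 and CDT1 load the ring of MCM helicase subunits onto DNA, a step called licensing. In S phase CDC45 and the GINS complex switch the helicase on, polymerase alpha-primase lays down primers, and polymerases epsilon and delta, held by the PCNA clamp, extend them. Many of these genes are transcribed in waves under E2F transcription factors, so their mRNA is abundant in cells that pass through G1 and S phase and low in cells that have stopped dividing. In bulk RNA, fewer cells in a cell cycle phase and less RNA per cell cannot be told apart.

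FPKM summed to 444217 to 445209 in the Tdo2high MFs CM libraries and to 438603 to 447415 in the Control CM libraries, and 10804 genes were tested. Read depth is unknown, because the values are rounded FPKM. The lowest values over the 6 libraries were 263.92 FPKM for Krt8 and 347.11 FPKM for Krt18, keratins of simple epithelium, while the epithelial adhesion genes Epcam and Cdh1 did not exceed 0.11 and 0.02 FPKM. Of 7 fibroblast markers in the table, 4 reached 1 FPKM, and the 7 summed to 83.4 to 86 FPKM in Tdo2high MFs CM libraries and 84.1 to 86.6 FPKM in Control CM libraries. Of these, Dcn (log2 fold change -0.48) and Fap (-0.31) fell and Pdgfra (0.17) rose, and their part in the results below was not tested. Over the 6 libraries Pdgfra averaged 44.6 FPKM, Pdgfrb 23.3, Dcn 13.2 and Fap 3.5. The other fibroblast markers in the table, the collagen genes Col1a1 and Col1a2 and Lum, stayed at or below 0.12 FPKM. The endothelial markers in the table summed to at most 0.12 FPKM in any library, the T cell markers to at most 0.38 FPKM, and the myeloid markers to at most 2.2 FPKM, nearly all of it Cd68.

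Replication mRNAs were slightly lower in cells given Tdo2high MFs CM. Of the 50 genes, 16 fell and 1 rose at an adjusted p under 0.05 (limma over all tested genes), and 33 did not pass. Over all tested genes 4.06% fell and 3.35% rose, so the 16 falls, 32% of the members, were above that share. The members were chosen with earlier results of these data known, and many are transcribed together. The contrast is therefore a description, and enrichment was not tested. The log2 fold change, on the log2(FPKM + 1) scale and taken as Tdo2high MFs CM over Control CM, was below 0 for 46 of 50 members. It was below 0 for 56.4% of all tested genes. The median over the members was -0.14, against -0.01 over all tested genes. The differences in mean FPKM ran from -18.97% (Cdc6) to -9.62% (Mcm4) among the 16 genes. In 29 members every Tdo2high MFs CM value lay below every Control CM value, where 17.5% of all tested genes did so. In 1 member, Rpa1, every Tdo2high MFs CM value lay above, where 11.6% of all tested genes did so.

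The same picture was seen library by library. Averaged over the members, log2(FPKM + 1) deviated from its 6-library mean by -0.06, -0.05 and -0.07 in Tdo2high MFs CM replicates 1 to 3, against 0.05, 0.08 and 0.05 in Control CM replicates 1 to 3. The highest library was Control CM replicate 2, and the groups did not overlap. Over all tested genes the same mean deviation stayed within -0.01 to 0.01 in the 6 libraries. The falls were the clear majority of the calls under other ways of scaling the libraries as well. There were 17 falls and 1 rise on the TPM scale and 13 falls and 1 rise with the median of ratios or quantile normalization, while over all genes the median of ratios turned 362 rises and 439 falls into 455 rises and 367 falls.

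**Figure D1:**
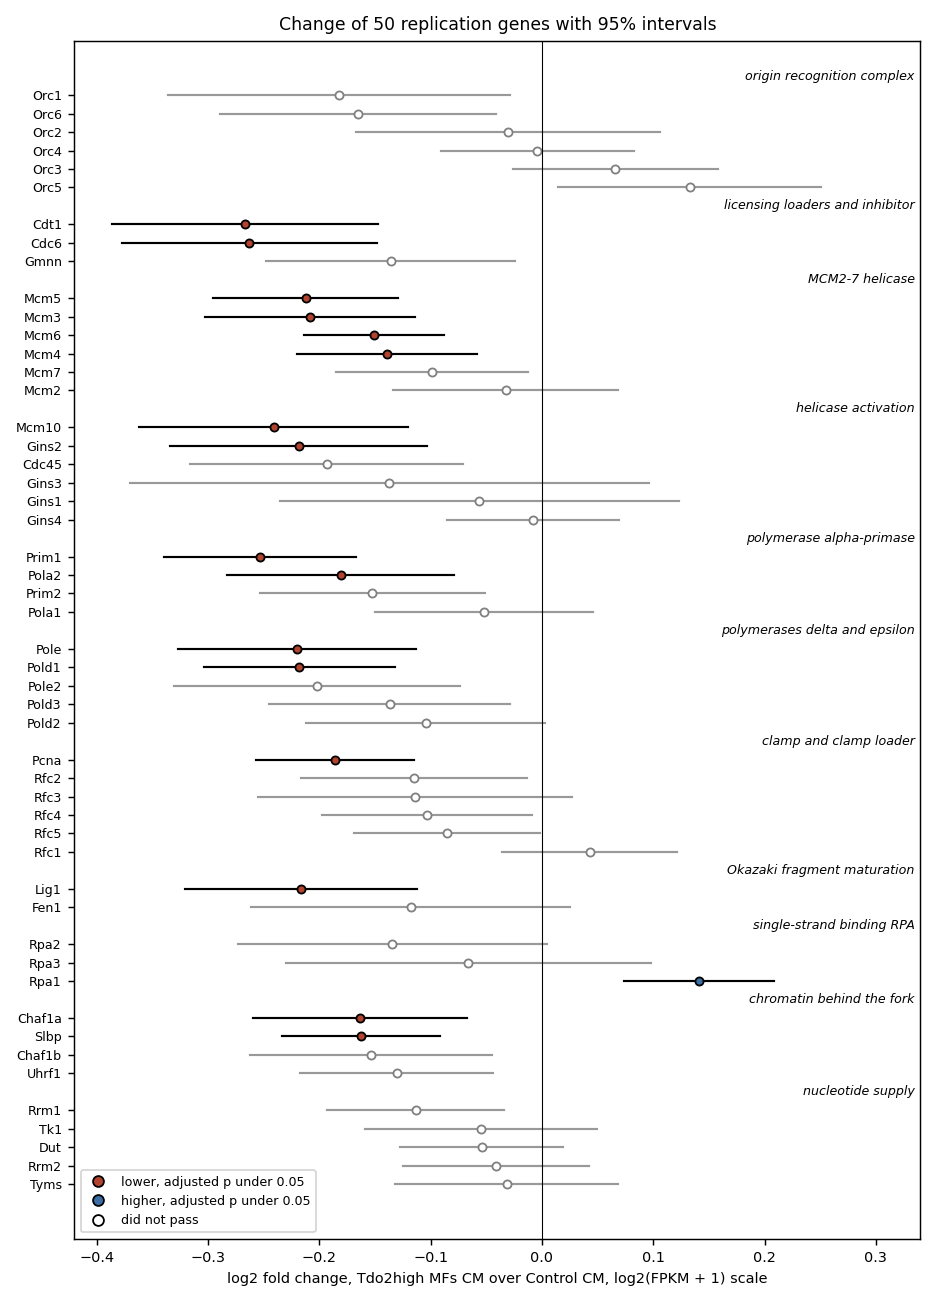
Log2 fold change of each of the 50 genes, Tdo2high MFs CM over Control CM, on the log2(FPKM + 1) scale, with 95% intervals of the fit and grouped by sub-complex; filled points passed an adjusted p of 0.05. Of the 50 points 46 lie left of 0, and Rpa1 is the only filled point to the right.

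Which members passed depended on the libraries in the fit. Leaving out 1 library in turn gave 9, 7 and 9 falls without Tdo2high MFs CM replicates 1, 2 and 3, and 11, 9 and 8 falls without Control CM replicates 1, 2 and 3. Mcm5, Prim1, Pold1 and Pcna were called in all 6 of these fits, Mcm6 and Slbp in 5, and Cdc6 in 4. Mcm6 missed without Tdo2high MFs CM replicate 3 (adjusted p = 0.0504), Slbp without Tdo2high MFs CM replicate 2 (adjusted p = 0.0556), and Cdc6 without Tdo2high MFs CM replicate 1 or 3 (adjusted p up to 0.0527). Mcm3 was called in 3 of the 6 fits, Cdt1, Mcm10, Gins2, Lig1 and Rpa1 in 2, Pola2, Pole and Chaf1a in 1, and Mcm4 in none. With no filter on low values, which tests 16397 genes, 6 falls and no rise were left: Mcm5, Mcm6, Prim1, Pold1, Pcna and Slbp.

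On the log2(FPKM + 1) scale the licensing factors held the 2 largest falls. The order depended on the pseudocount. At 5 FPKM, Cdt1 had -0.21 and Cdc6 -0.17, and Mcm3, of the helicase ring, was lower than Cdc6 at -0.18. Cdt1, which brings the MCM ring to the origin, had 12.1, 11.5 and 13 FPKM in Tdo2high MFs CM samples, against 14.1, 15.6 and 15 FPKM in Control CM samples. Every Tdo2high MFs CM value was below the Control CM values, and the mean fell by 18% (log2 fold change -0.27 ± 0.05 SE, adjusted p = 0.0173). Cdc6, the ATPase that works with CDT1 in loading, had 5.5, 6.03 and 5.64 FPKM in Tdo2high MFs CM samples and 7.04, 7.27 and 6.88 FPKM in Control CM samples. The groups were again apart, with a log2 fold change of -0.26 ± 0.05 and an adjusted p of 0.0153. Gmnn encodes geminin, the inhibitor that holds CDT1 in check after licensing. It averaged 18.5 ± 0.648 FPKM in Tdo2high MFs CM samples and 20.5 ± 1.43 FPKM in Control CM samples (SD, n = 3 each), a difference that did not pass (log2 fold change -0.14, adjusted p = 0.136 by limma), although the groups did not overlap.

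None of the 6 subunits of the origin recognition complex passed the limma test, and at an unadjusted p under 0.05 there were 2 with lower and 1 with higher values. Over all tested genes, 14.1% had lower and 9.68% had higher values at that unadjusted threshold. Orc1, the subunit whose level follows the cell cycle in mammalian cells, was the least abundant member of all, at 1.99, 1.85 and 1.87 FPKM in Tdo2high MFs CM samples and 2.12, 2.33 and 2.44 FPKM in Control CM samples. Its log2 fold change of -0.18 (95% interval -0.34 to -0.03, adjusted p = 0.145) was the lowest of the complex. At such low values the added 1 FPKM shrinks the log2 fold change, which was -0.26 with a pseudocount of 0.1. The mean FPKM of Orc1 was 17.1% lower. Orc6 had -0.17 (adjusted p = 0.105), also with no overlap of the groups. Exons of Nif3l1 on the opposite strand (log2 fold change 0.03) cover 29.8% of the exon bases of Orc2. Part of the Orc2 value may thus be reads of Nif3l1 if the counting ignored strand. Orc2 had -0.03 and Orc4 -0.0040, with overlapping groups. Orc5 and Orc3 lay on the other side of 0, at 0.13 (95% interval 0.01 to 0.25, adjusted p = 0.165) and 0.07 (adjusted p = 0.371). The median over the complex was -0.02. In mean FPKM the complex ran from Orc3, at 17.9 in Tdo2high MFs CM and 17.1 in Control CM samples, down to Orc2, at 8.25 in Tdo2high MFs CM and 8.46 in Control CM samples, and Orc1.

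Of the 6 genes of the MCM helicase ring, 4 fell, against 4.06% of all tested genes. All 6 had a log2 fold change below 0, against 56.4% of all tested genes, and the median was -0.14. Mcm5 had 16.6, 16 and 16.1 FPKM in Tdo2high MFs CM samples, against 18.4, 19.5 and 19 FPKM in Control CM samples. The mean fell by 14.4%, with no overlap (log2 fold change -0.21 ± 0.04, adjusted p = 0.00911). Mcm3 had 22.9, 21.5 and 23.8 FPKM in Tdo2high MFs CM samples and 25.4, 27 and 26.8 FPKM in Control CM samples (-0.21 ± 0.04, adjusted p = 0.0186). Mcm6 had 41, 40.2 and 40.1 FPKM in Tdo2high MFs CM samples and 44.4, 45.5 and 45 FPKM in Control CM samples. It had the smallest error of the ring, with a log2 fold change of -0.15 ± 0.03 and an adjusted p of 0.0124. Mcm4, with 20.4, 20.9 and 21.1 FPKM in Tdo2high MFs CM samples and 22.9, 23.8 and 22.3 FPKM in Control CM samples, passed narrowly (-0.14 ± 0.04, adjusted p = 0.0456). Its call ended with the median of ratios, with quantile normalization and without any 1 library, where the adjusted p reached 0.130.

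The other subunits of the ring, Mcm7 and Mcm2, did not pass, and their groups overlapped. For Mcm7 the log2 fold change was -0.10 (adjusted p = 0.156, 95% interval -0.19 to -0.01) and for Mcm2 -0.03 (adjusted p = 0.713, 95% interval -0.13 to 0.07). The proteins form a ring with 1 copy of each, but the mRNAs were unequal in level per length. Mean FPKM was highest for Mcm7, at 42.1 in Tdo2high MFs CM and 45.1 in Control CM samples, and next for Mcm6, at 40.4 in Tdo2high MFs CM and 44.96 in Control CM samples. The Control CM values of these genes overlapped, so their order there is not clear. Mcm3, Mcm4 and Mcm5 followed in that order, and Mcm2 was lowest, at 12.15 in Tdo2high MFs CM and 12.45 in Control CM samples.

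**Figure D2:**
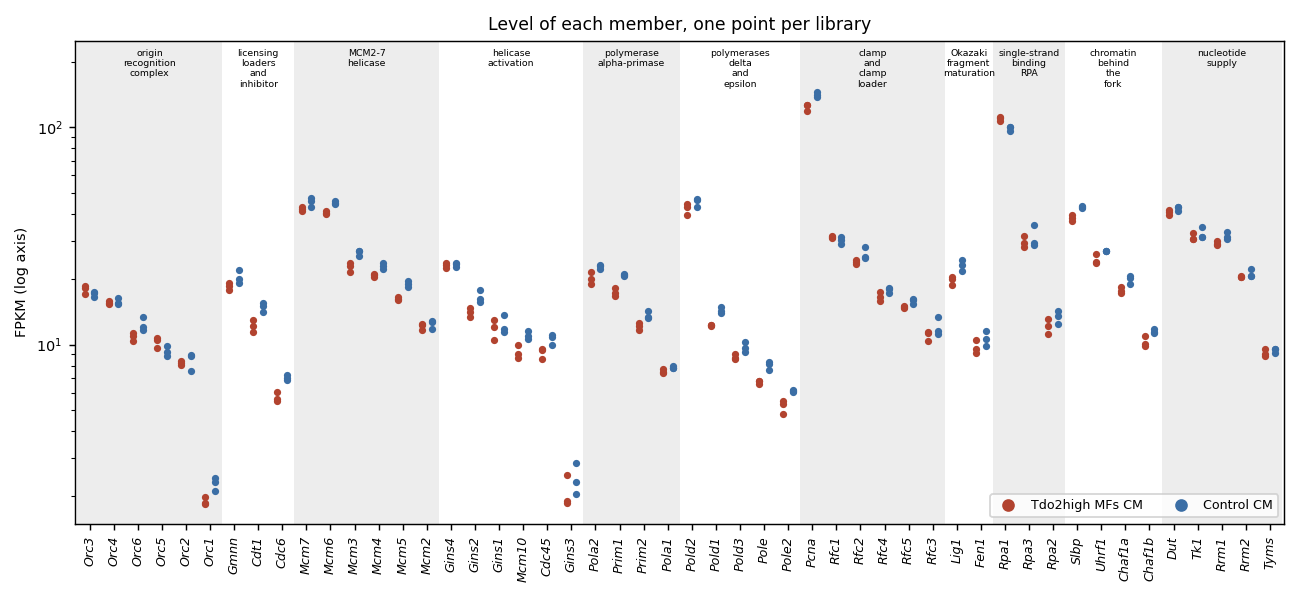
FPKM of each member in each library on a log axis, by sub-complex, with Tdo2high MFs CM samples left of Control CM samples and members ordered by mean level within a sub-complex. Levels span from about 2 FPKM (Orc1, Gins3) to over 100 FPKM (Pcna, Rpa1), far more than any member differs between the media.

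Among the helicase activators, 2 of 6 fell and all 6 had a log2 fold change below 0 (median -0.17). Over all tested genes these shares were 4.06% and 56.4%. Mcm10, which helps to activate the assembled helicase, had 9.91, 8.69 and 9.07 FPKM in Tdo2high MFs CM samples, against 10.7, 11 and 11.6 FPKM in Control CM samples (log2 fold change -0.24 ± 0.05, adjusted p = 0.0263). Gins2 had 14.8, 14.1 and 13.4 FPKM in Tdo2high MFs CM samples and 16.3, 17.8 and 15.7 FPKM in Control CM samples (-0.22 ± 0.05, adjusted p = 0.0324). In both genes the groups were apart, and Tdo2high MFs CM replicate 1 came within 1 FPKM of the lowest Control CM value. With a correction for GC content and transcript length, Gins2 no longer passed. Gins2 shares 67.3% of its annotated exon bases with Gse1 on the opposite strand, so part of its value may be reads of Gse1 if the counting ignored strand. Gse1 itself had a log2 fold change of -0.0028.

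Cdc45, the helicase cofactor, had 9.42, 9.51 and 8.56 FPKM in Tdo2high MFs CM samples and 10.8, 11.1 and 9.96 FPKM in Control CM samples. The groups did not overlap, but the difference missed the threshold (-0.19, 95% interval -0.32 to -0.07, adjusted p = 0.0632). It passed on the TPM scale and once GC content and length were corrected for. The other GINS subunits overlapped between the groups, with log2 fold changes of -0.14 for Gins3, -0.06 for Gins1 and -0.0079 for Gins4. Of these 3, Gins4 was measured most closely, with a 95% interval of -0.09 to 0.07. The levels of the GINS subunits were unequal too. Gins4 averaged 23.2 FPKM in Tdo2high MFs CM and 23.3 FPKM in Control CM samples, and Gins3 averaged 2.09 FPKM in Tdo2high MFs CM and 2.40 FPKM in Control CM samples.

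Polymerase alpha-primase starts each new strand with a short primer. All 4 of its genes were lower in every Tdo2high MFs CM sample than in any Control CM sample (17.5% of all tested genes). Of the 4, 2 passed as lower, against 4.06% of all tested genes. Prim1, the catalytic primase subunit, had 16.6, 17.3 and 18.1 FPKM in Tdo2high MFs CM samples, against 21, 20.9 and 20.7 FPKM in Control CM samples. Of all 50 members it had the lowest adjusted p, 0.00462, with a log2 fold change of -0.25 ± 0.04. Pola2, the accessory subunit of the polymerase, had 18.9, 19.9 and 21.5 FPKM in Tdo2high MFs CM samples and 22.3, 23.3 and 23.1 FPKM in Control CM samples (-0.18 ± 0.05, adjusted p = 0.0415). Its call ended with the median of ratios and with quantile normalization. Prim2, the large primase subunit, had -0.15 (adjusted p = 0.0733) and the catalytic subunit Pola1 had -0.05 (95% interval -0.15 to 0.05, adjusted p = 0.513).

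The catalytic subunits of both main replicative polymerases fell. Pold1, of the lagging strand polymerase delta, had 12.2, 12.3 and 12.3 FPKM in Tdo2high MFs CM samples and 14, 14.9 and 14.3 FPKM in Control CM samples, with a log2 fold change of -0.22 ± 0.04 (adjusted p = 0.00936). Pole, of the leading strand polymerase epsilon, had 6.59, 6.77 and 6.83 FPKM in Tdo2high MFs CM samples and 8.27, 7.63 and 8.12 FPKM in Control CM samples (-0.22 ± 0.05, adjusted p = 0.0243). In both genes the groups were apart and the treated samples lay close together. The accessory subunits Pole2 (-0.20, adjusted p = 0.0635), Pold3 (-0.14, adjusted p = 0.124) and Pold2 (-0.10, adjusted p = 0.221) did not pass, and of these only Pold2 overlapped between groups. The median over the 5 genes was -0.20, and it was -0.13 with a pseudocount of 5 FPKM.

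Pcna, the clamp that tethers the polymerases, was the most abundant member. It had 126, 126 and 119 FPKM in Tdo2high MFs CM samples, against 140, 145 and 138 FPKM in Control CM samples. The mean fell by 12.2%, the groups did not overlap, and the log2 fold change was -0.19 ± 0.03 (adjusted p = 0.00839). Named pseudogenes of Pcna and Tyms exist in RefSeq and can share reads with their parent genes. None of the 5 clamp loader subunits passed the limma test, while 3 had lower values at an unadjusted p under 0.05 (14.1% of all tested genes). Rfc2 had -0.11, Rfc3 -0.11, Rfc4 -0.10 and Rfc5 -0.09, at adjusted p between 0.162 and 0.310. Rfc1, the large subunit, had 0.04 (95% interval -0.04 to 0.12, adjusted p = 0.5) and was the most abundant of the loader, at 31.2 ± 0.41 FPKM in Tdo2high MFs CM and 30.3 ± 1.18 FPKM in Control CM samples.

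Lig1, the ligase that joins the fragments of the lagging strand, had 18.9, 19.9 and 20.4 FPKM in Tdo2high MFs CM samples and 21.7, 23.2 and 24.4 FPKM in Control CM samples. It fell with a log2 fold change of -0.22 ± 0.05 (adjusted p = 0.0234). Its partner Fen1, the flap nuclease, did not pass and overlapped between groups (-0.12, 95% interval -0.26 to 0.03, adjusted p = 0.304). Annotated antisense exons of Gm10143 cover 78.8% of the exon bases of Fen1.

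The only member that rose was 1 of the 3 genes of RPA, the protein that coats single-stranded DNA. Rpa1, its large DNA-binding subunit, had 106, 112 and 110 FPKM in Tdo2high MFs CM samples, against 100, 96.3 and 101 FPKM in Control CM samples. All treated values lay above all control values, and the mean was 10.4% higher (log2 fold change 0.14 ± 0.03, adjusted p = 0.0226). The call was kept in 10 of 17 alternative settings, and it ended without any of 4 libraries (Tdo2high MFs CM replicates 2 and 3, Control CM replicates 1 and 2), where the adjusted p reached 0.0819. Rpa2 and Rpa3 had log2 fold changes of -0.13 (adjusted p = 0.224) and -0.07 (adjusted p = 0.631), with overlapping groups. The subunits work as a trimer, yet Rpa1 mRNA was far more abundant, at a mean of 109 FPKM in Tdo2high MFs CM and 99.0 FPKM in Control CM samples. Rpa3 averaged 29.7 FPKM in Tdo2high MFs CM and 31.2 FPKM in Control CM samples, and Rpa2 averaged 12.1 FPKM in Tdo2high MFs CM and 13.4 FPKM in Control CM samples.

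**Figure D3:**
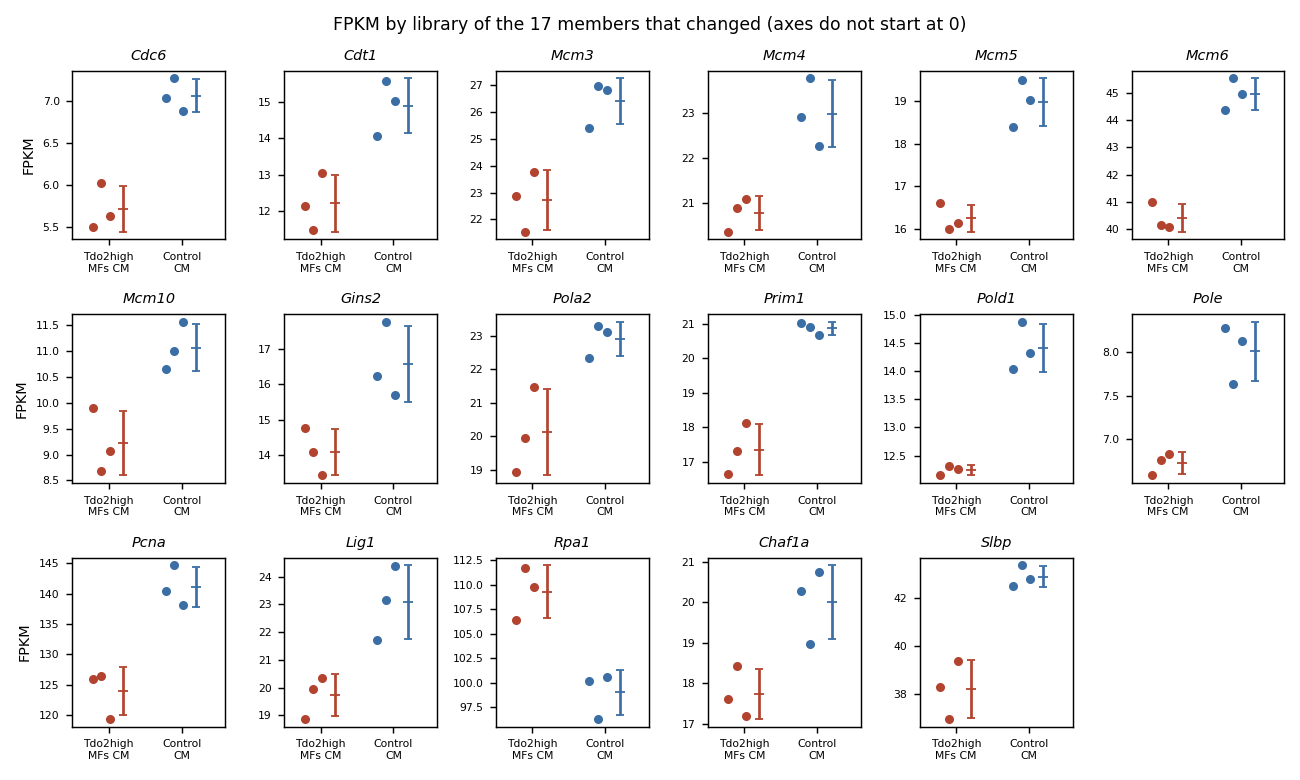
FPKM of the 17 members that passed the test, 1 point per library with the mean and SD beside the points, Tdo2high MFs CM left and Control CM right; each panel has its own axis, which does not start at 0. In 16 panels the Tdo2high MFs CM points all lie below the Control CM points, and in Rpa1 they lie above.

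The 4 genes tied to chromatin behind the fork or to histone mRNA all had non-overlapping, lower values with Tdo2high MFs CM. Of all tested genes 17.5% did so. Of the 4 genes, 2 passed, against 4.06% of all tested genes that fell. Slbp, which binds the stem-loop of histone mRNAs, had 38.3, 37 and 39.4 FPKM in Tdo2high MFs CM samples and 42.5, 43.4 and 42.8 FPKM in Control CM samples (log2 fold change -0.16 ± 0.03, adjusted p = 0.0153). Chaf1a, the large subunit of chromatin assembly factor CAF-1, had 17.6, 18.4 and 17.2 FPKM in Tdo2high MFs CM samples and 20.3, 19 and 20.7 FPKM in Control CM samples. Its log2 fold change was -0.16 ± 0.04 (adjusted p = 0.0487), and its call was kept in 7 of 17 alternatives. It was lost with the median of ratios, with quantile normalization and in 5 of the 6 fits without 1 library. The exons of Ubxn6 on the opposite strand cover 52.5% of those of Chaf1a, and Ubxn6 had a log2 fold change of -0.02. The CAF-1 partner Chaf1b had -0.15 (adjusted p = 0.0886), and Uhrf1, which guides DNA methylation at the fork, had -0.13 (adjusted p = 0.0725).

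None of the 5 enzymes of nucleotide supply passed the limma test, and 1 of them had a lower value at an unadjusted p under 0.05, where 14.1% of all tested genes did so. Their median was -0.05, and it was -0.02 without Control CM replicate 2. Rrm1, the large subunit of ribonucleotide reductase, had 28.9, 29.8 and 28.6 FPKM in Tdo2high MFs CM samples and 31.4, 32.8 and 30.6 FPKM in Control CM samples. These groups did not overlap, at a log2 fold change of -0.11 (95% interval -0.19 to -0.03, adjusted p = 0.0869). The small subunit Rrm2, whose protein limits the enzyme in S phase, had 20.6, 20.7 and 20.5 FPKM in Tdo2high MFs CM samples and 20.7, 22.2 and 20.7 FPKM in Control CM samples, and its interval ran from -0.12 to 0.04. Thymidine kinase Tk1 (-0.05), the dUTPase Dut (-0.05) and thymidylate synthase Tyms (-0.03) overlapped between the groups, at adjusted p between 0.354 and 0.716.

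To show the sequence in front of these genes, the 200 bases before the RefSeq transcript start (build GRCm38.p6) are given 5′ to 3′ for the 6 called members with the largest changes that have an entry in the promoter table, and for Mcm5 and Mcm6, added because their E2F matches overlap on both strands. Capitals mark matches to an E2F motif (TTTCCCGC, TTTCGCGC, TTTGCCGC or TTTGGCGC) or to CCAAT, the motif bound by NF-Y, on either strand.
Cdt1, chr8:122567815-122568014, plus strand: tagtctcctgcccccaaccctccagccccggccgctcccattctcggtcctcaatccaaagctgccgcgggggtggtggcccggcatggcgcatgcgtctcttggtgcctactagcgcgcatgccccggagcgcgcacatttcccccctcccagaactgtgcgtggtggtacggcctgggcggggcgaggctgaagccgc
Cdc6, chr11:98907951-98908150, plus strand: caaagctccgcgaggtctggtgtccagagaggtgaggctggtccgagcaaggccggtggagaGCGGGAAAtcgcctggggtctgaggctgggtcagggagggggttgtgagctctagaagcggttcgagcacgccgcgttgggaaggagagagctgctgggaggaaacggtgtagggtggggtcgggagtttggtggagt
Prim1, chr10:128015015-128015214, plus strand: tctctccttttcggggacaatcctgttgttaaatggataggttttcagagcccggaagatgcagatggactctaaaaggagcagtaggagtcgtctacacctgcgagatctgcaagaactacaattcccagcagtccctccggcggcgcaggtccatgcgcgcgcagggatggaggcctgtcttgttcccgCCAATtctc
Mcm10, chr2:5012792-5012991, minus strand: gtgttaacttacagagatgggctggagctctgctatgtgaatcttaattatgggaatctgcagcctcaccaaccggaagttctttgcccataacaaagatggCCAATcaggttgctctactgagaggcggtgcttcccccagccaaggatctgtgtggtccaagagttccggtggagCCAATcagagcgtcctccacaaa
Pold1, chr7:44548816-44549015, minus strand: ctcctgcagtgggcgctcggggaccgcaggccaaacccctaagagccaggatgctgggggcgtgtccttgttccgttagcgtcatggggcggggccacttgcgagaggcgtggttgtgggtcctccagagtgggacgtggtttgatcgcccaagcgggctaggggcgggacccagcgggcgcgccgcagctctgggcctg
Lig1, chr7:13276975-13277174, plus strand: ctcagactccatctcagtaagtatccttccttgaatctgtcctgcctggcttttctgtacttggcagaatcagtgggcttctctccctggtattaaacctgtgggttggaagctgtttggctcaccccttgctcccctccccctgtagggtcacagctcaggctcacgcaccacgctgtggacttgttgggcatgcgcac
Mcm5, chr8:75109309-75109508, plus strand: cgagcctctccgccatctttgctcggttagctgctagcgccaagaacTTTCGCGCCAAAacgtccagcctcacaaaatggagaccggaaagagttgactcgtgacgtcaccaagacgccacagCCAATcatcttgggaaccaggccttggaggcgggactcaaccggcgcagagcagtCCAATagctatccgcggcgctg
Mcm6, chr1:128359706-128359905, minus strand: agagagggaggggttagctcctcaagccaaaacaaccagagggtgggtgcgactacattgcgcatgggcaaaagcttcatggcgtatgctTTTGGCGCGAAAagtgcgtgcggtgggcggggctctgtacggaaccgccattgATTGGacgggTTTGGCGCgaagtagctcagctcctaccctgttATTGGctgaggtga
In Mcm5 and Mcm6 a pair of E2F matches on opposite strands shares 4 bases, and Mcm6 holds another match 47 bases before its start. Cdc6 has a match from -138 to -131. Those of Cdt1 (33 to 40) and Pold1 (40 to 47) lie after the start and so outside the stretch printed. Prim1 and Mcm10 hold CCAAT but no E2F match. Lig1 has 3 starts in the table, the first of which is shown, and the E2F match lies after another.

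Promoter windows from 250 bases before to 50 after the start were found for 42 of the 50 members. An E2F match was present in 16 of the 42 genes (38.1%), against 5.07% of the 8752 tested genes with a window. Such a match was present in 7 of 13 members that fell (53.8%) and in 9 of 28 that did not pass (32.1%). CCAAT was found in 61.9% of the members with a window and in 44% of tested genes. It was found in 61.5% of those that fell and 60.7% of those that did not pass. Orc3, whose log2 fold change was above 0, also holds an E2F match, while Prim1, Mcm10, Chaf1a, Pcna, Pola2 and Slbp fell without one in this window. A match is a description of letters and says nothing of binding in these cells.

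**Figure D4:**
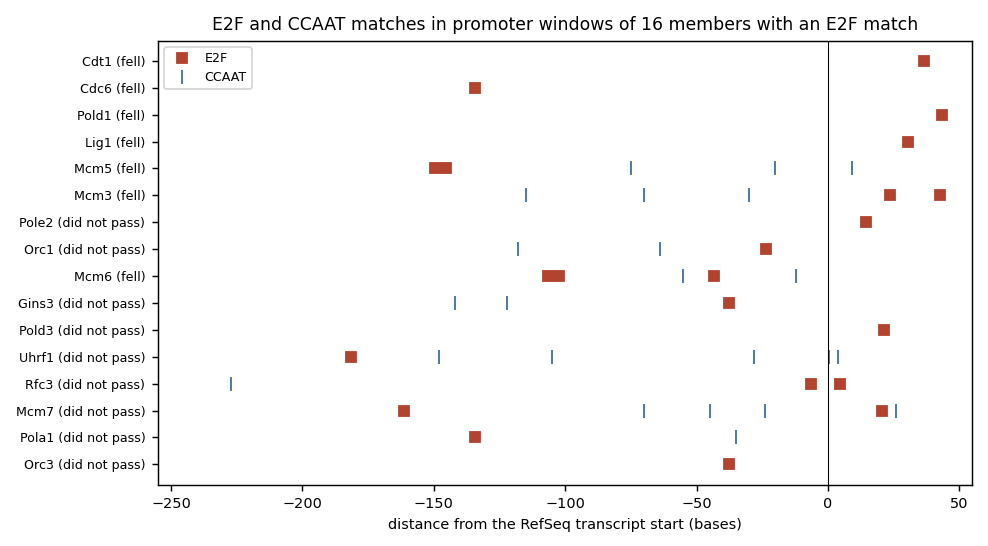
Position of E2F matches (squares) and CCAAT matches (bars) relative to the transcript start, in bases, for the 16 members with an E2F match in any of their windows, ordered from the lowest log2 fold change at the top. The 7 that fell include Mcm3, Mcm5 and Mcm6, and matches lie on both sides of the start.

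Genes of the same pathway outside the members were also counted. Of 34 tested other replisome and origin factors, 4 fell and none rose, against 4.06% and 3.35% of all tested genes. The log2 fold change was below 0 for 23 (67.6%), against 56.4% of all tested genes, and the median was -0.10. At an unadjusted p under 0.05, 13 had lower and 3 had higher values, against 14.1% and 9.68% of all tested genes. Cdca7, a chromatin remodelling cofactor, had 17.7 ± 1.17 FPKM in Tdo2high MFs CM samples and 20.9 ± 0.786 FPKM in Control CM samples (log2 fold change -0.23, adjusted p = 0.0242). Ctc1 (-0.16), a subunit of the telomeric CST complex, Dnmt1 (-0.15), the maintenance DNA methyltransferase that works with UHRF1, and Chtf8 (-0.11), of an alternative clamp loader, fell too. Dna2 stayed below the filter. Of these 4 calls none held in more than 3 of the 6 fits without 1 library.

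Of 37 other nucleotide synthesis enzymes, 5 fell and 1 rose, against 4.06% and 3.35% of all tested genes, with a median of -0.04. At an unadjusted p under 0.05, 8 had lower and 2 had higher values, against 14.1% and 9.68% of all tested genes. Dck, the deoxycytidine kinase of the salvage route, had 7.91, 8.03 and 7.94 FPKM in Tdo2high MFs CM samples, against 9.91, 10.4 and 9.98 FPKM in Control CM samples. The change was larger than that of any of the 50 members (log2 fold change -0.31 ± 0.04, adjusted p = 0.00237), and the call was kept in all 17 alternatives. The mitochondrial kinase Dguok (-0.14), the purine enzyme Pfas (-0.20), and the serine hydroxymethyltransferases Shmt1 (-0.25) and Shmt2 (-0.20), which load folate with carbon units, fell as well. Without 1 library Shmt2 was kept in 5 of 6 fits, Shmt1 in 4, Pfas in 1 and Dguok in 0. Of 10 S phase checkpoint genes none passed the limma test, and 2 had lower values at an unadjusted p under 0.05 (14.1% of all tested genes). All 10 had log2 fold changes below 0 (56.4% of all tested genes), from -0.21 for Rad9a to -0.0076 for Cdc25a. At an adjusted p of 0.07, Chek1, the kinase that restrains origin firing when forks stall, came closest (-0.14).

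**Figure D5:**
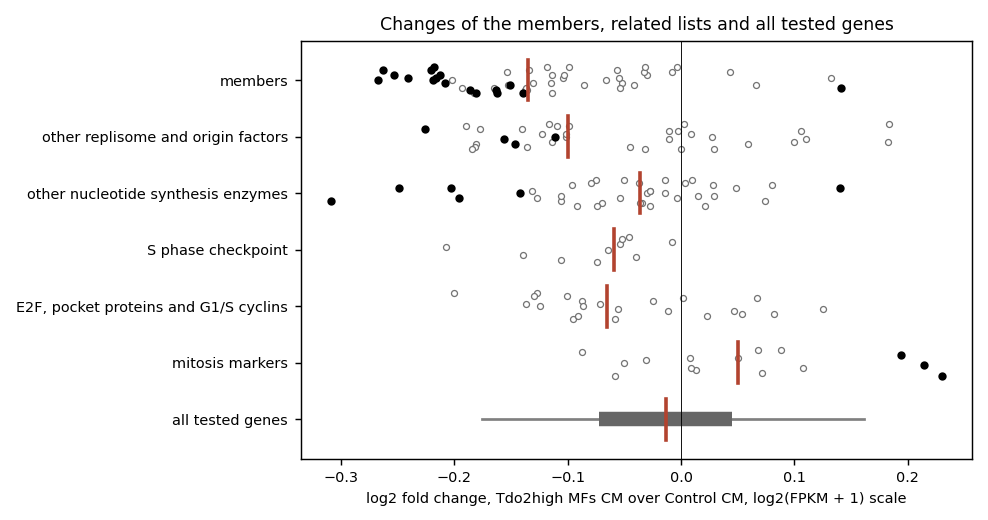
Log2 fold changes, Tdo2high MFs CM over Control CM, of the 50 members, 5 related lists and all tested genes; filled points passed the test, red bars are medians, and for all tested genes the thick and thin bars span the middle 50% and 90%. The members' median of -0.14 lies left of the others, and that of mitosis markers is 0.05.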

How the data were processed

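Gene expression was measured by RNA-seq of polyA RNA from 6 samples, with cDNA primed by random hexamers, per the labels' protocols. The authors deposited 1 table of FPKM, rounded to 2 decimals, per the file headers; the build was GRCm38, per the submitters' processing notes, and for the aligner, quantifier and strand setting the sources used here give nothing. FPKM is relative to each library's total, so a change in abundant genes shifts all other values. Samples were grouped by their titles, which match the columns.

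Genes with at least 1 FPKM in at least 3 libraries (10804 of 16426) were tested as log2(FPKM + 1) with limma 3.58.1 in R 4.3.3 (eBayes with trend, two-sided), and p-values were adjusted by Benjamini-Hochberg across those 10804 genes, with 0.05 as the threshold. For 1 value, an exact permutation test of 3 samples against 3 has 0.1 as its smallest p, so none was used. The precision is set by the 6 libraries, since depth is unknown. The test was checked on data simulated from these 10804 genes, with 200 genes changed and the folds applied to FPKM + 1. Of the 1.1-fold changes 16.4% were called, of the 1.2-fold 59.6% and of the 1.5-fold 95.6%. The real data gave more calls (362 rises and 439 falls), and at low FPKM a fold of FPKM + 1 is a larger fold of FPKM. These shares may thus differ from those in the real data. Members and lists were chosen with earlier results of these data known. Every member is accounted for; of other lists up to 6 called genes with the largest change are named, and further genes were named after their values were seen. The values of 1 such called gene are not reported here. Exon overlaps come from GENCODE M21, promoters from RefSeq (GRCm38.p6). Alternatives covered pseudocount, filter, scaling, variance model, a replicate block, leaving out each library and, added after seeing the data, a correction for GC content and transcript length. Figures were drawn with matplotlib 3.10.9.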

Additional observations from a re-analysis of the deposited data

How the results depend on the processing

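Against 362 rises and 439 falls over all genes, and 16 falls and 1 rise among the members, no filter on low values (only the 29 genes at 0 throughout left out) gave 199 rises and 195 falls over all genes, and 6 falls and 0 rises among members. Without the intensity trend there were 248 rises and 277 falls over all genes, and 11 falls and 0 rises among members. Leaving out 1 library gave 209 to 293 rises and 186 to 266 falls over all genes, and 7 to 11 falls and 0 to 1 rises among members. With the replicate number as a block 14 members fell and 0 rose (Mcm4, Mcm10, Chaf1a and Rpa1 no longer passed and Cdc45 passed), and over all genes 326 fell and 296 rose. The labels do not say that a number marks a shared culture or day, and deviations of same-numbered samples correlated at -0.02, -0.03 and 0.02, so the numbers were not taken as pairs.

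The median over the members was -0.1002 with a pseudocount of 5, -0.1179 under quantile normalization and -0.1429 to -0.1194 without 1 library. With a pseudocount of 5 the median was -0.1701 for licensing factors, -0.1013 for helicase activators and -0.1257 for polymerases delta and epsilon. The last was -0.2326 with a pseudocount of 0.1, -0.2305 on the TPM scale, -0.1826 under quantile normalization and -0.1615 with the GC and length correction. The origin recognition complex had -0.0027 under quantile normalization. Without 1 library the medians ran from -0.0388 to -0.0033 for that complex, -0.2206 to -0.1145 for helicase activators, -0.2158 to -0.1572 for polymerases delta and epsilon, -0.1252 to -0.0666 for the clamp and loader and -0.1123 to 0.0284 for RPA.

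The signs that turned were all of members that had not passed. Orc4 had 0.0094 by the median of ratios, 0.0075 by quantile normalization and 0.0003 with the GC and length correction, and Gins4 had 0.0057 and 0.0038 by the first 2 of these. Without 1 library Orc2 ran from -0.1001 to 0.0068, Orc4 from -0.0209 to 0.0225, Gins1 from -0.1206 to 0.0229, Gins4 from -0.0260 to 0.0096 and Rpa3 from -0.1207 to 0.0284. The cause of these differences was not tested. Depth is unknown, which limits what can be said of the least abundant members, Orc1 and Gins3.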

Other observations

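Genes that promote or restrain entry into S phase gave no calls. Of 22 genes of E2F and pocket proteins, G1/S cyclins, their kinases and kinase inhibitors, none passed the limma test. The log2 fold change was below 0 for 15 (68.2%), against 56.4% of all tested genes, and the median was -0.065. At an unadjusted p under 0.05, 7 had lower and 2 had higher values, against 14.1% and 9.68% of all tested genes. E2f1, an activator of replication genes, averaged 18.5 ± 0.48 FPKM in Tdo2high MFs CM samples and 19.8 ± 0.809 FPKM in Control CM samples (SD, n = 3 each; log2 fold change -0.10, limma adjusted p = 0.186). Ccne2, a cyclin of the G1/S transition, had -0.20 (adjusted p = 0.0881) and the retinoblastoma gene Rb1 0.13 (adjusted p = 0.161). The cyclin D1 gene Ccnd1, the most abundant of the 22, was higher, at 0.08 (adjusted p = 0.156). It averaged 378 FPKM in Tdo2high MFs CM and 357 FPKM in Control CM samples, and the groups did not overlap. The genes named here were chosen after their values were seen.

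Of 15 mitosis markers, 3 rose and none fell, against 3.35% and 4.06% of all tested genes. There were 11 above 0 and 4 below (Aurkb, Kif11, Bub1 and Plk1), with a median of 0.05. Of all tested genes 56.4% were below 0. At an unadjusted p under 0.05, 4 had higher and 0 had lower values, against 9.68% and 14.1% of all tested genes. The proliferation antigen Mki67 had 38.5 ± 0.988 FPKM in Tdo2high MFs CM samples and 32.7 ± 1.65 FPKM in Control CM samples (log2 fold change 0.23, limma adjusted p = 0.00911), and its call was kept in all 17 alternatives. The kinetochore genes Cenpf (0.21) and Cenpe (0.19) rose too, with calls kept in 4 and 2 of the 6 fits without 1 library. The difference between the replication genes and the mitosis markers was not tested.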
